A study of Homo sapiens
Mus musculus with 3 samples.

Results

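MALAT1 and NEAT1 are long noncoding RNAs that stay in the nucleus and are made from neighbouring genes in human and in mouse. MALAT1 RNA collects in nuclear speckles, the compartments that store splicing factors, and its mature 3′ end is cut by RNase P and protected by a triple helix instead of a poly(A) tail. NEAT1 is the architectural RNA of paraspeckles. Its short isoform is polyadenylated, while the long isoform that scaffolds the paraspeckle is not. How either RNA is seen by a protocol that primes from poly(A) therefore depends on which ends of it the primer can reach.

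The genes described here are 4 of the 60736 rows of the count tables: human MALAT1 (ENSG00000251562) and NEAT1 (ENSG00000245532), out of 32738 human genes, and mouse Malat1 (ENSMUSG00000092341) and Neat1 (ENSMUSG00000092274), out of 27998 mouse genes. They were taken by their identifiers. All 4 rows were found in the read tables and in the table of unique molecular identifiers (UMIs, random tags that mark single cDNA molecules).

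Each of the 3 libraries was made on the iCELL8 cx nanowell system from an equal mixture of 4 established lymphocyte lines: Jurkat (a human T cell leukemia), TALL-104 (a human cytotoxic T cell leukemia), EL4 (a mouse T cell lymphoma) and IVA12 (a mouse B cell hybridoma). All groups hold the same mixture, and none was treated. TALL-104 cells were cultured with IL-2. The group 3'DE has 2 libraries made with the kit's own 3′ end protocol, in which reverse transcription and amplification run in the well. The group 3'DE-UMI has 1 library, in which cDNA was taken off the chip, cleaned and treated with an exonuclease before amplification so that UMIs could be counted. The labels do not say whether the libraries came from separate cultures, so the spread between them may be technical. The p-values given here set a change against that spread. In the gene tests each gene's spread was first drawn toward that of other genes.

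The libraries held 35581264 and 109702878 reads assigned to genes (3'DE libraries 1 and 2) and 44883618 reads (3'DE-UMI). Between 1257 and 1455 wells per library passed as wells of a single species, with medians of 22685 to 32578 reads. From 336 to 378 well barcodes occurred in both libraries of a pair. The labels list the libraries as separate samples and do not say whether they were separate runs. Wells of each species formed 2 classes on genes other than these 4. No table used here pairs the files' identifiers with symbols, so lineage markers of the lines could not be looked up and the classes carry numbers. Human class 1 had 406, 448 and 528 wells (values for 3 libraries are given throughout as 3'DE library 1, then 3'DE library 2, then 3'DE-UMI), and human class 2 had 127, 36 and 29. Mouse class 1 had 473, 499 and 469 wells, and mouse class 2 had 449, 274 and 231. Human class 2 was shallow, with a median of 4493 to 9277 human reads per well against 17468 to 36444 in human class 1.

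MALAT1 was among the 3 genes with most reads in every class and library, in both species. Levels are given as the share of the reads of the wells' own species, where 1% is 10000 CPM (counts per 1000000 reads). In human class 1, MALAT1 took 0.989% and 1.57% of human reads in the 3'DE libraries and 1.14% in the 3'DE-UMI library, a mean of 1.23% ± 0.301 (SD, n = 3 libraries). In human class 2 it took 6.49%, 12.01% and 6.31%, a mean of 8.27% ± 3.24 (SD, n = 3), and was the gene with most reads in each library. The lowest value of class 2 was above the highest value of class 1. Mouse Malat1 took 0.953%, 1.40% and 1.18% of mouse reads in mouse class 1 (mean 1.18% ± 0.224, n = 3) and 2.19%, 2.64% and 2.47% in mouse class 2 (mean 2.43% ± 0.230, n = 3). These groups did not overlap either. The share of other genes without overlap between the classes was not counted, so this order is not shown to be particular to these RNAs.

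NEAT1 was at a far lower read level. In human class 1 it had 49.9, 81.5 and 113 CPM, from 508, 3786 and 1718 reads. In human class 2 it had 394, 104 and 141 CPM, but these rest on 251, 145 and 27 reads. The range of class 2 overlapped that of class 1. Mouse Neat1 had 30.4, 76.6 and 91.7 CPM in mouse class 1 and 60.1, 126 and 258 CPM in mouse class 2. Each library was higher in class 2, while the ranges over libraries overlapped. Since reads come from the 3′ ends that the primer reached, the MALAT1 and NEAT1 values are not compared with each other as amounts of RNA.

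**Figure D1:**
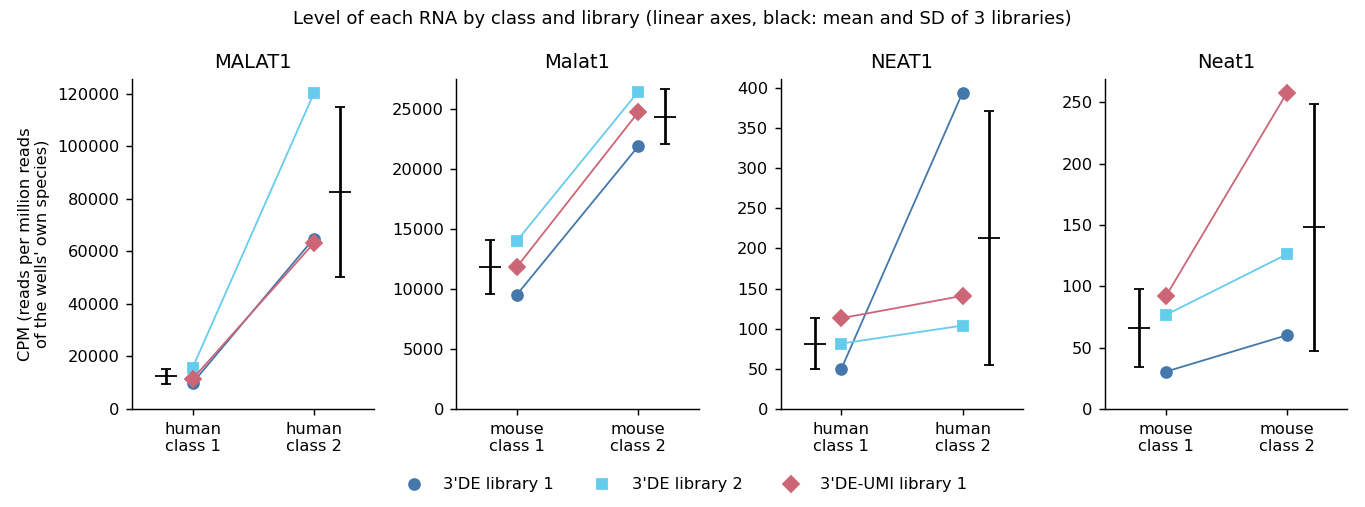
CPM (reads per 1000000 reads of the wells' own species, linear axes from 0) of MALAT1, Malat1, NEAT1 and Neat1, with 1 coloured symbol per library joined across the 2 classes of a species, and the mean and SD of the 3 libraries in black. All 3 lines rise from class 1 to class 2 in each panel. MALAT1 and Malat1 do so without overlap between the classes, which was not counted over other genes. NEAT1 rises from 49.9 to 394 CPM in 3'DE library 1, from 81.5 to 104 CPM in 3'DE library 2 and from 113 to 141 CPM in the library with UMIs.

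The first question was whether the 2 classes of a species differ in these RNAs beyond the spread between libraries. In mouse, both RNAs were higher in class 2. Malat1 was 2.295, 1.89 and 2.09 times higher in the 3 libraries, a mean log2 ratio of CPM of 1.06 ± 0.14 (SD, n = 3). After scaling by trimmed means (TMM) in edgeR's quasi-likelihood test, with library as a block, its log2 change was 0.83 (SE 0.18, adjusted p = 0.00593). Neat1 was 1.98, 1.65 and 2.81 times higher, and its log2 change was also 0.83 (SE 0.22, adjusted p = 0.0139). In this comparison 38.9% of the 12097 mouse genes tested passed the threshold, so a call there is common, and both RNAs lay at the 73rd percentile of all log2 changes. Without 3'DE library 1 the adjusted p of Neat1 was 0.0584. Without TMM factors the changes of all genes moved up with these RNAs, to a median of 0.26 from 0.03, and Malat1 stood at 1.06.

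In human, MALAT1 was higher in class 2 by 6.56, 7.65 and 5.51 times, a mean log2 ratio of CPM of 2.704 ± 0.24 (SD, n = 3). The fitted log2 change was 2.52, at the 95th percentile of the 10738 human genes tested, whose median was -1.85. Scaling did not centre these changes, whose median was -1.72 without TMM factors. NEAT1, which did not pass, lay at the 89.7th percentile, so a high place here does not by itself set an RNA apart. In this comparison 3.54% of genes passed the threshold. The default fit took the variance of this RNA from the end of a trend with abundance and gave an SE of 0.069, smaller than the spread between the libraries, and an adjusted p of 1.8e-278. Without that trend, a setting chosen after the data were seen, the SE was 0.81 and the adjusted p 0.0480, and DESeq2 gave 0.0485. The call therefore held in all 3 fits, the last 2 close to the threshold. NEAT1 was 7.89 times higher in class 2 in 3'DE library 1 and 1.27 and 1.25 times higher in the other libraries. With wells thinned to 5000 reads, so that deep wells do not outweigh the others, the ratios were 4.91, 3.55 and 1.52. Its log2 change of 1.00 (SE 1.21, adjusted p = 0.666, edgeR) did not pass, with an interval of -1.37 to 3.36 that leaves wide differences in either direction undetected.

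A share of reads can be high because the RNA is abundant or because the rest is scarce, and human class 2 wells held fewer reads. The mean number of MALAT1 reads per well was 325, 4658 and 417 in class 2 and 248, 1629 and 329 in class 1, numbers that also depend on amplification and sequencing and, in 3'DE library 2, on deep wells. The part of a scarce remainder in the higher share was not tested. Within a window of 2000 to 10000 human reads per well, where class 2 was still shallower (medians of 4117 to 5274 reads against 6256 to 6716), MALAT1 took 65710, 82962 and 67032 CPM in class 2 (108, 14 and 25 wells) and 12987, 15097 and 16104 CPM in class 1 (46, 70 and 146 wells). The class 2 values were 5.06, 5.495 and 4.16 times higher. NEAT1 in this window was 4.87, 4.77 and 0.934 times its class 1 value, from 15 to 180 reads per class and library. The same depth window narrowed the mouse difference. Malat1 in class 2 was 1.41, 1.15 and 2.34 times its class 1 value, a mean log2 ratio of 0.64 ± 0.53 (SD, n = 3). In 3'DE library 2 the median well of that window was lower in class 2 (16447 CPM) than in class 1 (17174 CPM). Neat1 in this window was 0.927, 0.634 and 1.59 times its class 1 value, a mean log2 ratio of -0.03 ± 0.67 (SD, n = 3). The libraries went both ways, on 23 to 102 Neat1 reads and 23 to 71 wells per class and library. This window was chosen after the data were seen and was given no test.

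Single wells were compared after each was thinned to 5000 reads of its own species, which leaves out 7 to 77 shallower wells per class and library. In human class 2 it left out 77 of 127, 10 of 36 and 15 of 29 wells. In human class 1 it left out 16 of 406, 30 of 448 and 44 of 528. The thinned values of human class 2 thus describe its deeper wells. The median human class 1 well then had 43.5, 70.5 and 52 MALAT1 reads in the 3 libraries, and the median human class 2 well had 316, 460.5 and 313.5, from 50, 26 and 14 wells. The 5th percentile of class 2 (186, 239 and 201 reads) lay above the 95th percentile of class 1 (104, 178 and 198 reads) in each library. In mouse the distributions overlapped widely. The median mouse class 1 well had 41, 69 and 49.5 Malat1 reads and the median mouse class 2 well 104, 128 and 115. The 95th percentile of class 1 (106, 190 and 162 reads) exceeded the class 2 median in each library.

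**Figure D2:**
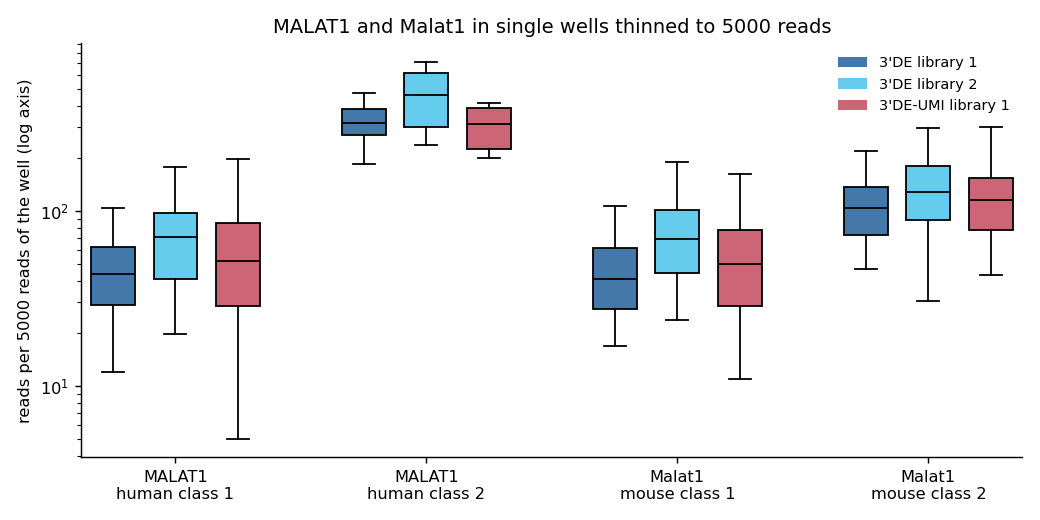
Reads of MALAT1 (human wells) and Malat1 (mouse wells) in single wells thinned to 5000 reads of their own species, on a log axis, with boxes from the 25th to the 75th percentile, a line at the median and whiskers from the 5th to the 95th percentile, coloured by library. The 3 boxes and lower whiskers of human class 2 sit above the upper whiskers of human class 1 of the same library, while the mouse whiskers overlap. Human class 2 has 50, 26 and 14 thinned wells.

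MALAT1 varied widely between wells of human class 1. In thinned human class 1 wells its coefficient of variation was 89.1%, 68.7% and 88.4% in the 3 libraries, where Poisson counting of reads gives 14.1%, 11.3% and 12.2%. That figure covers read counting only, and several reads came from 1 molecule, so sampling of molecules adds to it by an amount not computed here. Among the 50 genes with most reads in that class, at most 5 varied more. Malat1 in mouse class 1 had coefficients of 105%, 76.4% and 99.5%. No gene of the leading 50 varied more in 2 of the libraries, while 4 did in 3'DE library 2. Malat1 in mouse class 2 had lower coefficients, of 54.7%, 64.9% and 74.97%. The median of the leading 50 genes there was 41.5%, 57.99% and 55.1%, and 2, 13 and 6 of them varied more. In human class 2 the order was turned round. MALAT1 had coefficients of 29.0%, 38.7% and 27.0%, and 46 to 49 of the 50 leading genes varied more. MALAT1 also had the most reads there, and lower counts alone raise the coefficient of the other genes. In the 3'DE-UMI library the median well of that class held 18 MALAT1 UMIs and 353 human UMIs. The comparison was not adjusted for level, so MALAT1 is not shown to be unusually even. All these coefficients describe wells within libraries and carry no test.

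MALAT1 reached 10% of human reads in 4 of 127, 17 of 36 and 1 of 29 wells of human class 2, and in 1 well of human class 1 over the 3 libraries. The 17 wells of 3'DE library 2 had a median of 20278 reads, against 6470 in the other class 2 wells of that library. Malat1 reached 10% of mouse reads in 1 or 2 wells of each mouse class in each library. The highest single well was in mouse class 2 of the 3'DE-UMI library, at 19.2%.

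The second question was whether the protocol changes what is seen of these RNAs. For MALAT1 no difference passed the test. In mouse class 1 the log2 change of Malat1 in the 3'DE-UMI library against the 3'DE libraries was -0.12 (SE 0.28, adjusted p = 0.817, edgeR), an interval of -0.67 to 0.43, where 12.1% of genes passed. In human class 1 that of MALAT1 was -0.03 (SE 0.26, adjusted p = 0.951), an interval of -0.53 to 0.47, where 12.4% of genes passed. In mouse class 2 that of Malat1 was -0.18 (adjusted p = 0.954), where 2.39% of genes passed. Its SE of 1.09 again came from the end of the abundance trend, and was 0.51 without it. Without that trend the intervals of mouse class 1 and human class 1 were wider, at -0.77 to 0.53 and -0.83 to 0.77. The 3'DE-UMI value lay between those of the 2 3'DE libraries in human class 1, mouse class 1 and mouse class 2. In human class 2 it was 6.31% against 6.49% and 12.01%, for which no test was planned where a library held under 50 wells of the class. The sums of those 36 and 29 wells did enter the comparison of the human classes above. In all 4 classes the highest value was that of 3'DE library 2, the library with most reads, also after thinning to one depth. The part of depth or of that library in this order was not tested.

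The 3'DE-UMI library gave higher NEAT1 or Neat1 values than either 3'DE library in human class 1, mouse class 1 and mouse class 2, but none of these passed. In human class 2 it lay between them, at 141 CPM. At 5000 reads per well the order also broke in mouse class 1, where 3'DE library 2 had a mean of 0.613 reads and the 3'DE-UMI library 0.601. The log2 change was 0.91 in human class 1 (SE 0.43, adjusted p = 0.180, edgeR), 0.66 in mouse class 1 (SE 0.44, adjusted p = 0.340) and 1.29 in mouse class 2 (SE 0.46, adjusted p = 0.113). With 1 library of the 3'DE-UMI group the comparison has 1 residual degree of freedom, and the protocol and that library cannot be told apart. Replicate spread comes from the 2 3'DE libraries only, and the fit draws each RNA's variance toward that of other genes. The SE and p-values of the protocol comparisons therefore rest on those other genes as well. In mouse class 2 the unadjusted p was 0.00530, and the adjusted p was 0.0264 without TMM factors and 0.0463 with wells thinned to 5000 reads. The test of whether the class difference depends on the protocol did not pass for either mouse RNA. The interaction was -0.09 for Malat1 (SE 0.35, adjusted p = 1) and 0.55 for Neat1 (SE 0.42, adjusted p = 0.663), where 2.14% of genes passed.

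The share of wells in which an RNA was seen also set the 2 RNAs apart. MALAT1 or Malat1 had at least 1 read in 97.9% to 100% of wells of each class and library. NEAT1 had a read in 33.3%, 41.1% and 18.9% of human class 1 wells and in 45.7%, 38.9% and 17.2% of human class 2 wells. Neat1 had one in 23.9%, 54.7% and 21.7% of mouse class 1 wells and in 38.5%, 51.5% and 57.6% of mouse class 2 wells. These shares compare wells within a library and have no test. The classes differ in depth. At 5000 reads per well NEAT1 was seen in 17.2%, 21.1% and 12.2% of human class 1 wells and in 48%, 30.8% and 21.4% of human class 2 wells, from 50, 26 and 14 wells. Neat1 was then seen in 10.9%, 25.7% and 13.8% of mouse class 1 wells and in 22.01%, 30.8% and 42.0% of mouse class 2 wells. At that depth the class 2 share was the higher one in each library, in both species. In human class 1 the 3'DE-UMI library, although highest in CPM, had the lowest share. There its reads sat in fewer wells, 100 of 528, which held 1718 reads.

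The background of detection was read from wells of the other species, which cannot make the RNA. NEAT1 had a read in 0.325%, 10.3% and 0.429% of mouse wells, at median depths of 23714, 31942 and 31408 reads. Neat1 had one in 1.501%, 15.5% and 0.180% of human wells, at medians of 21426, 34368 and 16457 reads. All shares in wells of the own species were above these. The background of 3'DE library 2 stood apart, so that its higher detection of Neat1 in mouse class 1 (54.7%) has 15.5% beside it.

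**Figure D3:**
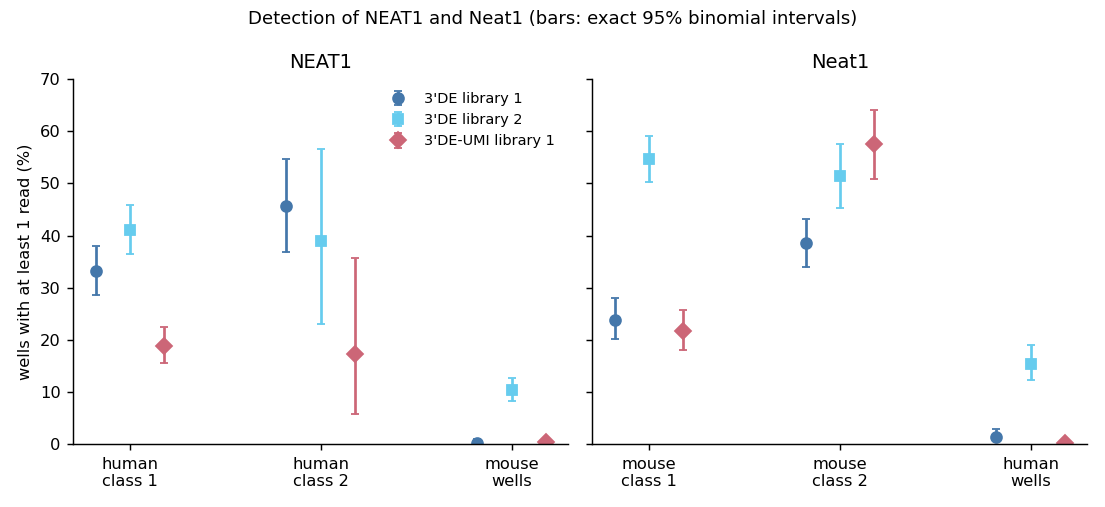
Share of wells with at least 1 read of NEAT1 (left) or Neat1 (right), in percent, in the 2 classes of its own species and in the wells of the other species, with 1 symbol per library and exact 95% binomial intervals as bars, which cover counting error over wells only. The other species' wells lie at 0.18% to 1.5%, except for 10.3% and 15.5% in 3'DE library 2.

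Reads assigned to MALAT1 itself were found widely in wells of the other species. MALAT1 had a read in 27.0%, 58.7% and 20.6% of mouse wells, and Malat1 in 41.8%, 80.0% and 36.3% of human wells. Reads were assigned on a combined reference of both species. Wells kept as wells of a single species could still hold some reads of the other. Where these stray reads came from was not tested. The amounts were small: 0.926, 11.7 and 1.03 MALAT1 reads per mouse well, against 266, 1854 and 334 per human well. Among these stray reads the RNA was less frequent than in its own wells. MALAT1 made up 8151, 10246 and 5877 CPM of the human reads found in mouse wells, and 13126, 18747 and 12085 CPM of the human reads in human wells. Malat1 made up 7297, 7354 and 6553 CPM of the mouse reads in human wells, and 14425, 17457 and 16478 CPM in mouse wells. The ratio of stray to own share was 0.621, 0.547 and 0.486 for MALAT1 and 0.506, 0.421 and 0.398 for Malat1. It also stayed below 1 in each library against class 1 alone, the class with the lower level (0.825, 0.653 and 0.514 for MALAT1, and 0.766, 0.525 and 0.553 for Malat1). The ratio was below 1 in 3 of 3 libraries for each RNA, where an exact sign-flip test over 3 libraries gives p = 0.25, the smallest it can give. NEAT1 and Neat1 showed no such order. Their stray shares were 0.816, 1.91 and 0.215 of the own share for NEAT1 and 1.07, 0.941 and 0.0316 for Neat1, from 1 to 138 stray reads.

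**Figure D4:**
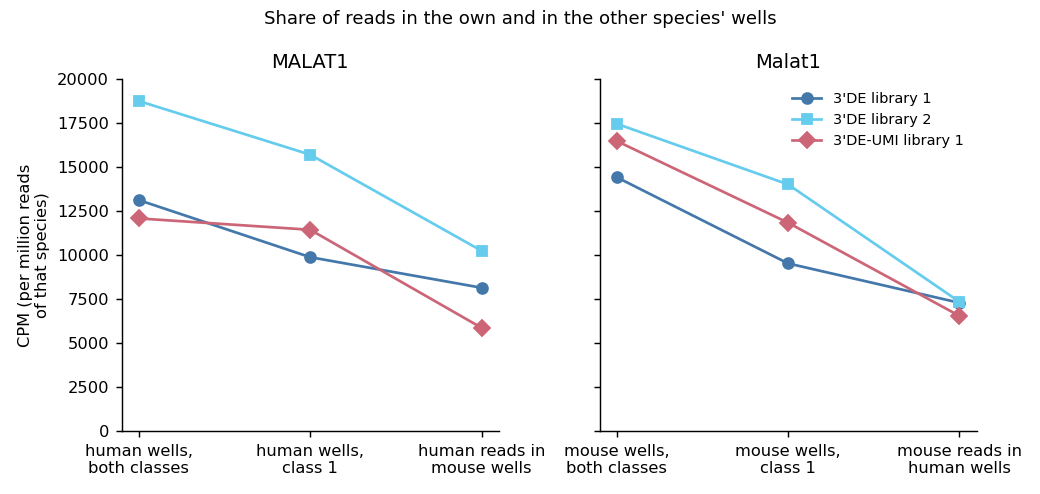
CPM of MALAT1 among human reads (left) and of Malat1 among mouse reads (right), on linear axes from 0, in all wells of its own species, in class 1 of that species and among the stray reads in wells of the other species, with 1 line per library. The stray value is the lowest of the 3 in every library for both RNAs.

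UMIs gave lower shares for MALAT1 than reads did. In the 3'DE-UMI library MALAT1 took 0.871% of UMIs in human class 1 and 4.59% in human class 2, against 1.14% and 6.31% of reads. Malat1 took 0.823% of UMIs in mouse class 1 and 1.68% in mouse class 2, against 1.18% and 2.47% of reads. The order of the classes was the same. The median well held 12 MALAT1 UMIs in human class 1 and 18 in human class 2, although the median well of class 2 had 353 human UMIs in all and that of class 1 had 1400.5. The median well held 17 Malat1 UMIs in mouse class 1 and 52 in mouse class 2, of 2649 and 3168 mouse UMIs.

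MALAT1 and Malat1 had more reads per UMI than the genes of their species as a whole. MALAT1 had 18.2 reads per UMI in human class 1 and 19.3 in human class 2, where all human genes together had 13.8 and 14.0. Malat1 had 16.7 in mouse class 1 and 16.1 in mouse class 2, against 11.6 and 10.9 for all mouse genes. These are 1.32, 1.38, 1.44 and 1.47 times the class values. Among the 50 genes with most UMIs in a class, 4, 3, 1 and 0 genes had more reads per UMI. Among all genes with at least 100 UMIs, Malat1 in mouse class 2 lay above 90.5% of 1480 genes (median 12.7 reads per UMI) and MALAT1 in human class 1 above 70.2% of 1515 (median 16.3). NEAT1 did not stand out, with 12.9 reads per UMI in human class 1 from 133 UMIs, and Neat1 had 14.0 and 12.6 in the mouse classes from 119 and 209 UMIs. The reads and the UMIs were counted by different pipelines, so a gene's ratio also holds any difference between them, and with 1 such library these values have no replicate check.

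**Figure D5:**
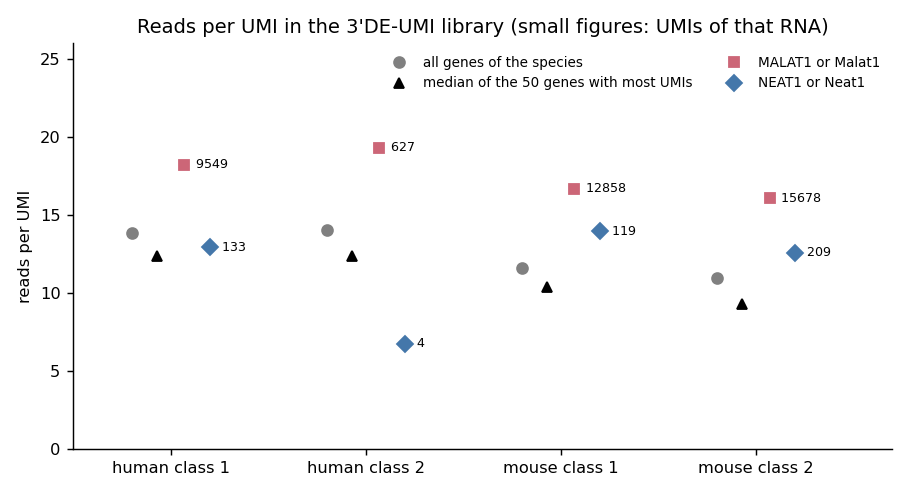
Reads per UMI (linear axis from 0) in the 4 classes of the 3'DE-UMI library for all genes of the species, for the median of the 50 genes with most UMIs, for MALAT1 or Malat1 and for NEAT1 or Neat1, with the number of UMIs beside each RNA. MALAT1 and Malat1 lie between 16.1 and 19.3, above both comparison values in every class, and the NEAT1 value of human class 2 rests on 4 UMIs.

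Across wells of a class, NEAT1 went weakly with MALAT1. Over the 3 libraries, the gene whose log values most resembled NEAT1 in human class 1 was MALAT1, out of 2029 genes, with r from 0.11 to 0.23. In mouse class 1 the gene most like Neat1 was Malat1, out of 2115, with r from 0.17 to 0.27. In mouse class 2 Malat1 was at place 24 of 2340, with r from 0.067 to 0.25. After thinning, NEAT1 was seen in 20%, 24.4% and 18.1% of human class 1 wells with MALAT1 above the median and in 14.4%, 17.7% and 6.50% of the others. Neat1 was seen in 14.0%, 34.5% and 16.2% of mouse class 1 wells with Malat1 above the median and in 8.02%, 17.1% and 11.4% of the others. The same order held in each library of mouse class 2, at 25%, 33.3% and 47.3% against 19.1%, 28.2% and 36.8%. Such correlations are weak, rest on sparse counts, share a library and its depth, and are given as a description. The ranking was not adjusted for level, and MALAT1 and Malat1 were among the 3 genes with most reads, while most genes compared were sparser. The genes most like MALAT1 in human class 1 and Malat1 in mouse class 1 were ENSG00000131747 (lowest r 0.19) and ENSMUSG00000020914 (lowest r 0.21). In mouse class 2 the gene most like Malat1 was ENSMUSG00000064370 (lowest r 0.23). It was also among the 3 most like Neat1 there and among the 3 most like Malat1 in mouse class 1. The gene most like Neat1 in mouse class 2 was ENSMUSG00000064341 (lowest r 0.16), which was at place 2 for Malat1 there. Whether both RNAs follow something that such genes share was not tested. Among wells of at least 5000 reads, r between the thinned log level of MALAT1 or Malat1 and the log of the well's reads ran from -0.26 to 0.13. In mouse class 1 wells of 2000 to 10000 reads, Malat1 stood higher than over all wells of the class, at 25188, 21037.5 and 17009.5 CPM against 9531, 14015 and 11842.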

How the data were processed

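Deposited values are counts. The authors counted reads per gene and well with mappa 0.9 and STAR 2.7.0b, and UMIs with Drop-seq tools 2.3.0 and STAR 2.4.2a, on a combined hg19 and mm10 reference (versions from the study's methods and the submitters' processing notes). Whether the deposited tables derive from downsampled reads, and whether strand was used, is not given in the sources used here. Reads of TALAM1, an antisense transcript of the MALAT1 locus, thus cannot be told apart from MALAT1.

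Wells needed 1000 reads, 200 genes and under 10% of reads from the other species. Genes were split into 2 sets by a fixed seed. Wells were clustered on one set (scanpy 1.11.5, Leiden resolution 0.1) and tested on the other, so no member shaped its classes. Doublets within a species were not called. Reads were summed per library and class and tested with edgeR 4.0.16 (filterByExpr, TMM, quasi-likelihood F-test, two-sided, Benjamini-Hochberg over all genes tested, threshold 0.05). SE is the log2 change over the root of F, and intervals are 1.96 SE. Alternatives included DESeq2 1.42.0. The edgeR fit was tested on simulated counts in which all genes had the same relative spread, unlike these data.

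The members and lists were chosen with earlier results of these data known. Named were the 4 RNAs and, by rule, the genes most like each across wells (lowest Pearson r over 3 libraries, genes of at least 50 CPM). Some of their identifiers are printed, without a symbol. Planned marker and gene lists could not be matched to identifiers and were not used.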

Additional observations from a re-analysis of the deposited data

Results flagged for a closer look

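UMIs of these RNAs also occurred under 1543 barcodes of the UMI table that have no column in the read table, data that no comparison above uses. These barcodes held a median of 44 UMIs each. They held 252 MALAT1 UMIs, 0.975% of their human UMIs, against 0.957% over all barcodes of the table. They held 1004 Malat1 UMIs, 1.499% of their mouse UMIs, against 1.15% over all barcodes, and 14 Neat1 UMIs. Each number is above the 3 counts that a count of 0 allows. NEAT1 had 3 UMIs there, which is not above it.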

How the results depend on the processing

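The 12 tested comparisons had 120 alternatives with a test, of which 111 kept direction and side of the threshold, and 16 values with no test, of which 13 kept direction. Only the class differences of Malat1, Neat1 and MALAT1 were calls. For the other results the same side means only that no call was made. The fit without the abundance trend, chosen after the data were seen, is counted among the alternatives. Neat1 between mouse classes lost its call without 3'DE library 1 (log2 change 0.83, adjusted p = 0.0584), and lay at 0.63 to 1.03 when each library was left out. Leaving out each library gave 0.71 to 0.92 for Malat1, 2.21 to 3.03 for MALAT1 and 0.13 to 1.87 for NEAT1 between classes. Neat1 in mouse class 2 passed between protocols without TMM factors (1.47, adjusted p = 0.0264) and with thinned wells (1.56, adjusted p = 0.0463). No call of MALAT1 or Malat1 between protocols was made, and signs near 0 turned: without TMM factors 0.0077 in mouse class 1, 0.034 in mouse class 2 and 0.0058 in the interaction; in human class 1 0.022 with DESeq2 and 0.24 with thinned wells, which gave 0.0099 in the interaction. Without 1 3'DE library, values with no test were -0.32 to 0.093 in mouse class 1, -0.36 to 0.37 in human class 1, and in the interaction -0.30 to 0.12 for Malat1 and 0.34 to 0.74 for Neat1. Without the 3'DE-UMI library no protocol value could be had. The mean log2 class ratio of Neat1 in wells of 2000 to 10000 reads was -0.032. The cause of these changes was not tested.

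Counts of genes called ranged from 26 (without 3'DE library 1) to 1528 (DESeq2) between human classes, against 380, from 2939 to 5678 between mouse classes, against 4711, from 736 to 2407 between protocols in human class 1, against 1706, and from 7 to 289 for the interaction, against 283. NEAT1 in human class 2 rests on as few as 27 reads, from 29 wells. No paired analysis was possible because the groups' replicate numbers are not from the labels; the library was a block in the class comparisons.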
